A study of Mus musculus with 6 samples.

Results

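Disallowed genes are genes that most tissues use and that pancreatic beta cells keep low. The 10 members examined here were Ldha, Slc16a1, Oat, Acot7, Igfbp4, Mgll, Lmo4, Zfp36l1, Ndrg2 and Cxcl12. They were read from the non-control probes that carry these gene names on a single-colour Agilent mouse array, which gave 17 of the 39429 probes and 10 of the 31829 gene names. Islets were isolated from 6-week-old male mice of a mixed background that combines the Nkx6.1-flox line (FVB/N and C57Bl/6J) with the Pdx1-CreERTM line (Cd1 and C57Bl/6J). The 3 control samples (A, B and C) had the genotype Nkx6.1fl/+;Pdx1-CreERTM, and the 3 mutant samples (A, B and C) had the genotype Nkx6.1fl/-;Pdx1-CreERTM. Each sample pooled islets of 2 pancreata of its genotype, and 150 ng of its RNA was labelled with Cy3. All mice, controls included, carried the Pdx1 promoter-driven, tamoxifen-activated recombinase and received 4 injections of tamoxifen in corn oil (2 mg per 25 g of body weight) from the age of 4 weeks. Controls kept a wild-type allele, so the recombinase leaves them with a functional copy, whereas mutants carried the null allele from before tamoxifen. The comparison asks which genes change with loss of Nkx6-1, a homeodomain transcription factor of beta cells.

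A beta cell couples glucose to insulin release by sending pyruvate into the mitochondria. Lactate dehydrogenase A, encoded by Ldha, turns pyruvate into lactate instead, and the transporter MCT1, encoded by Slc16a1, carries pyruvate and lactate across the plasma membrane. Low levels of both are known to keep blood pyruvate and lactate from setting off insulin release. The other members encode metabolic enzymes, secreted factors and regulators that are likewise low in beta cells of normal islets.

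The arrays hybridized whole islets, which also hold alpha, delta, endothelial, stromal and immune cells, so a change in the number of cells of a type and a change in RNA per cell cannot be told apart. Signals are given as log2 of the background-corrected intensity minus the 75th percentile of the array, so that 0 is the level of that percentile. Control means lay above it for Ldha (1.54), Mgll (0.53) and Acot7 (0.092) and below it for the other members. These whole-islet values do not show the level in beta cells. Signals of different probes were not set against each other. All 10 genes were read well above background on all 6 arrays, and none of their spots was saturated. Of the 17 probes 16 were tested, and the remaining Mgll probe was well above background on no array. Slide 1 carried mutants B and C with control A, and slide 2 carried controls B and C with mutant A. The share of probes well above background was 73.4% to 76.3% in controls and 63.9% to 74.4% in mutants, lowest in mutants A and B. Nkx6-1 had a signal of 4.79, 4.85 and 4.64 in controls A, B and C and of 4.32, 4.06 and 4.45 in mutants A, B and C. All mutant arrays lay below all control arrays, but the difference of -0.48 (SE 0.14) missed the threshold (limma, adjusted p = 0.131), and the labels do not say whether the probe lies in the deleted part. The p-values measure the spread between these pools of mice.

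The sequences of 4 of the 17 probes are shown because they give a second reading of a gene from another part of its transcript, away from the probe used for the gene. They are the 60-base sequences of the array files, with mm9 positions as the files give them. The Ldha sequences lie at chr7:54103010-54103069 and chr7:54107294-54107353 (plus strand), the Mgll sequence at chr6:88714636-88714695 (plus strand) and the Lmo4 sequence at chr3:143856878-143856937 (minus strand).
Ldha A_55_P2141876: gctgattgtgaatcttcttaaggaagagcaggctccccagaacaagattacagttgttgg
Ldha A_55_P2141878: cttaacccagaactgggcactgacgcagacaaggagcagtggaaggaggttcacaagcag
Mgll A_55_P2063312: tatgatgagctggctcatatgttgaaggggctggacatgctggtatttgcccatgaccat
Lmo4 A_55_P2018249: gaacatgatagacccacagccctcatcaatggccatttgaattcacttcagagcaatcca

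Upstream sequences of members were taken from RefSeq on GRCm38.p6 to see what letters the genes share. The 10 genes matched 16 start sites, and the 250 bases before each were searched on both strands. The E-box CACGTG, the core letters bound by Myc and USF family factors, occurred in 3 of the 16 windows, against 6.02% of 32851 such windows of all genes. They were those of Slc16a1, a start of Ldha and a start of Mgll. Ldha and Mgll each have another start whose window lacks it. The capitals begin 145 bases before that Ldha start, 200 bases before the Slc16a1 start and 44 bases before that Mgll start. The shown stretches lie at chr7:46845634-46845689, chr3:104638439-104638494 and chr6:88724343-88724398, all on the plus strand.
Ldha: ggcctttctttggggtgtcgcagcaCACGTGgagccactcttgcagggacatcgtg
Slc16a1: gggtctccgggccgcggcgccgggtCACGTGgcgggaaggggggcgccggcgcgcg
Mgll: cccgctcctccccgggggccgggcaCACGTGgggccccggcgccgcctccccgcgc
The homeodomain letters TAATTA occurred in 0 of the 16 windows, against 4.84% of all windows, and the longer TTAATTAC, which contains them, in 0 of the 16, against 0.57%. The Oat window is shown in full because Oat is the member that passed the test, and it holds none of these letters (chr7:132576399-132576648, minus strand).
Oat: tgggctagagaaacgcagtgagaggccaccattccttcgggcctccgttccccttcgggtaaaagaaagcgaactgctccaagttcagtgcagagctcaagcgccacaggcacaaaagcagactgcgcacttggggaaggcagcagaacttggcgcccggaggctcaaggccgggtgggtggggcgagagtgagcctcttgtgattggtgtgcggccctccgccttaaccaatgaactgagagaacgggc
Such matches describe letters and show no binding.

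Across the 10 members 1 gene, Oat, was higher in mutant islets and 0 were lower at an adjusted p under 0.05 over all genes tested (limma, empirical Bayes, Benjamini-Hochberg). Of all 22775 genes tested 2.53% passed, with 1.41% higher and 1.12% lower. With slide as a block 1 member passed too, Lmo4 in place of Oat, and 2.94% of all genes. At an unadjusted p under 0.05, 4 members were higher (Oat, Lmo4, Mgll and Ndrg2) and 0 lower, where 20.2% of all genes passed that level and 9.09% did so upward. In the same 4 genes all 3 mutant arrays lay above all 3 control arrays, as they did in 12.3% of all genes, and 0 members had all mutant arrays below, as 14.0% of all genes did. Groups that did not overlap in either direction made up 26.3% of all genes. At least 1.5-fold differences were found for 4 members (Oat, Lmo4, Igfbp4 and Ndrg2) and 15.8% of all genes. The median difference of the members, mutant minus control on the log2 scale, was 0.45, against -0.025 for all genes tested, and members ranged from -0.16 to 1.05. The medians were 0.11 within slide 1 and 0.56 within slide 2. Within both slides 7 members were higher (28.2% of all genes) and 1 was lower (34.4%), while 2 members pointed opposite ways. The count of 7 takes in Ldha at 0.058 and Igfbp4 at 0.0015 on slide 1.

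**Figure D1:**
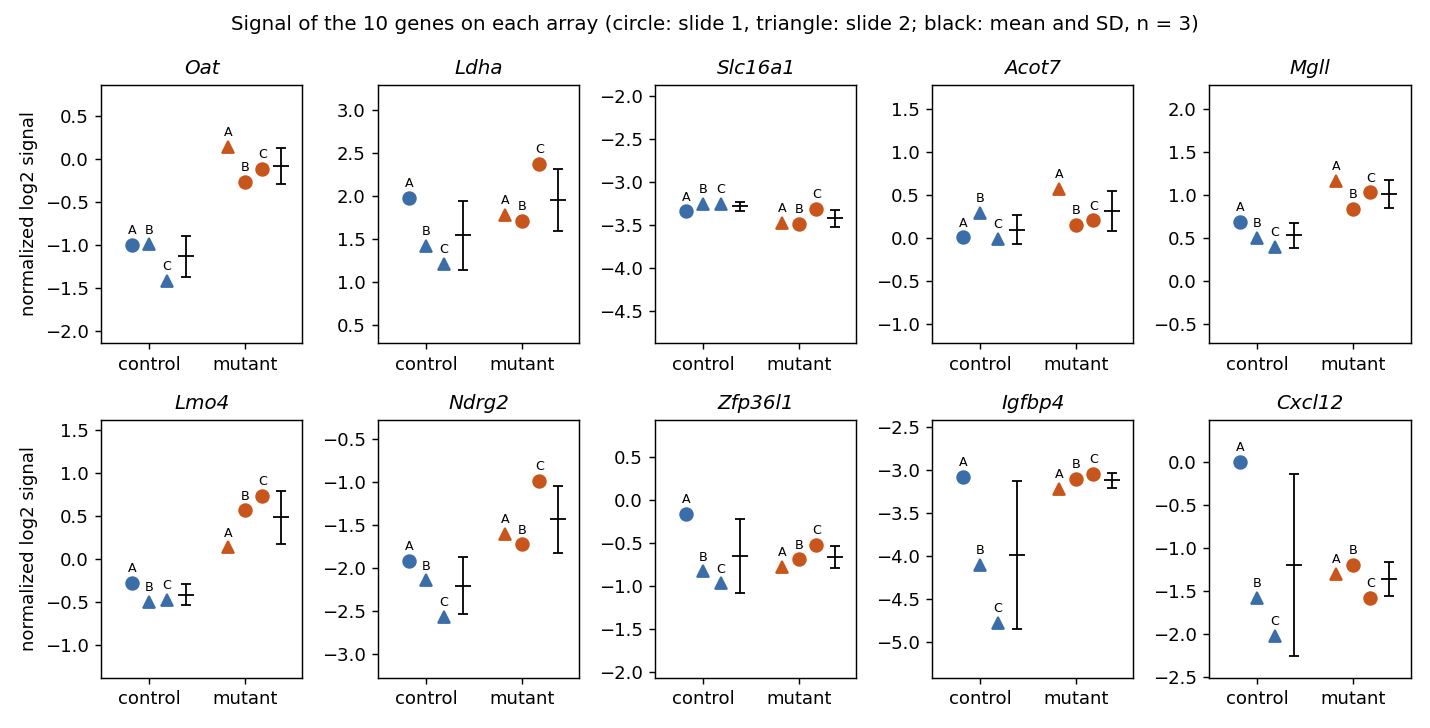
Normalized log2 signal (y axis, 0 at the array's 75th percentile) of the 10 genes in the 3 control and 3 mutant arrays, with circles for slide 1, triangles for slide 2, and mean and SD in black. Mutant and control arrays do not overlap for Oat, Mgll, Lmo4 and Ndrg2, and control A stands high for Cxcl12, Igfbp4 and Zfp36l1.

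Of the lactate genes, Ldha had a signal of 1.98, 1.42 and 1.21 in controls A, B and C and of 1.78, 1.71 and 2.37 in mutants A, B and C. Control A was above mutants A and B, so the groups overlapped, with mutant C highest. Controls averaged 1.54 ± 0.40 and mutants 1.95 ± 0.36 (SD, n = 3 each), and the difference of 0.41 (SE 0.27, 95% interval -0.24 to 1.07) did not pass (limma, adjusted p = 0.435). It was 0.058 within slide 1 and 0.46 within slide 2, and 0.26 with slide as a block. It ranged from 0.21 without mutant C to 0.64 without control A when 1 array was left out. Both Ldha probes whose sequences are given above read smaller differences, 0.19 (SE 0.21) for A_55_P2141876 and 0.30 (SE 0.24) for A_55_P2141878. On slide 1 they were lower in mutants, at -0.19 and -0.18, and on slide 2 higher, at 0.38 and 0.56. The interval of the used probe allows an increase of up to 1.07 and so does not show that Ldha stayed level.

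Slc16a1, the MCT1 gene, had a signal of -3.34, -3.25 and -3.25 in controls A, B and C and of -3.47, -3.49 and -3.31 in mutants A, B and C. Mutant C lay among the controls, and mutants A and B lay below them. The difference was -0.14 (SE 0.10, 95% interval -0.39 to 0.11) and did not pass (limma, adjusted p = 0.490). It was the member that was lower on both slides, at -0.054 on slide 1 and -0.22 on slide 2.

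Relatives of these genes are given from a list of transporters and dehydrogenases of lactate and pyruvate without the members. Of its 9 tested genes 1 passed the threshold upward and 1 downward (limma), where 2.53% of all genes passed, and the median was -0.36. At an unadjusted p under 0.05, 1 was higher and 4 were lower (limma), where 20.2% of all genes passed and 9.09% did so upward. Besides Slc16a3 and Ldhb, described next, the lower genes were Emb, which encodes a partner protein of these transporters, at -0.50, and Mpc1, a subunit of the mitochondrial pyruvate carrier, at -0.36. Both were named after their values were seen. Slc16a7 encodes MCT2, a transporter of the same family with high affinity for pyruvate and lactate, and its signal was -3.49, -4.71 and -4.54 in controls A, B and C against -2.44, -1.76 and -2.15 in mutants A, B and C. All mutant arrays lay above all controls, and it rose 4.38-fold (log2 difference 2.13, SE 0.36, limma, adjusted p = 0.0452). The differences within slides 1 and 2 were 1.54 and 2.18, and the slide block put the adjusted p at 0.0294. Its other probe, A_52_P408736, was well above background on no array and gives no second reading.

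Slc16a3 encodes MCT4, the exporter of lactate in glycolytic cells, and its signal was -0.71, -0.78 and -0.81 in controls A, B and C against -1.51, -1.29 and -1.57 in mutants A, B and C. All mutant arrays lay below all controls, and it fell 1.62-fold (log2 difference -0.69, SE 0.11, limma, adjusted p = 0.0437). The difference was -0.72 within each slide, and the slide block put the adjusted p at 0.0485. A second Slc16a3 probe read -0.83 (SE 0.20, adjusted p = 0.0894 over probes). Ldhb, the dehydrogenase subunit typical of heart, was named after its value was seen. It was at -0.72 (SE 0.17), with all mutants below all controls, and did not pass (limma, adjusted p = 0.0891).

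Leaving out single arrays ended these calls, except that Slc16a7 passed without control A (adjusted p = 0.0334). Quantile normalization and median scaling also ended them, at adjusted p values of 0.0545 and 0.0518 for Slc16a7 and of 0.0504 and 0.0764 for Slc16a3, as did the mean of both probes for Slc16a3 (0.0537). With the acinar marker mean of each array as a covariate, Slc16a7 was at 2.09 (limma, adjusted p = 0.101). Slc16a3 was at -0.69 with that covariate (limma, adjusted p = 0.0930), so neither passed. The shuttles that return cytosolic NADH to the mitochondria, the route that takes the place of lactate production in beta cells, had 0 of 10 genes past the threshold (2 higher and 0 lower at an unadjusted p under 0.05, limma), with a median of 0.15. The largest differences of that list were 0.65 for the glutamate carrier Slc25a22 (adjusted p = 0.0809) and 0.56 for the aspartate-glutamate carrier Slc25a13 (adjusted p = 0.0684).

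**Figure D2:**
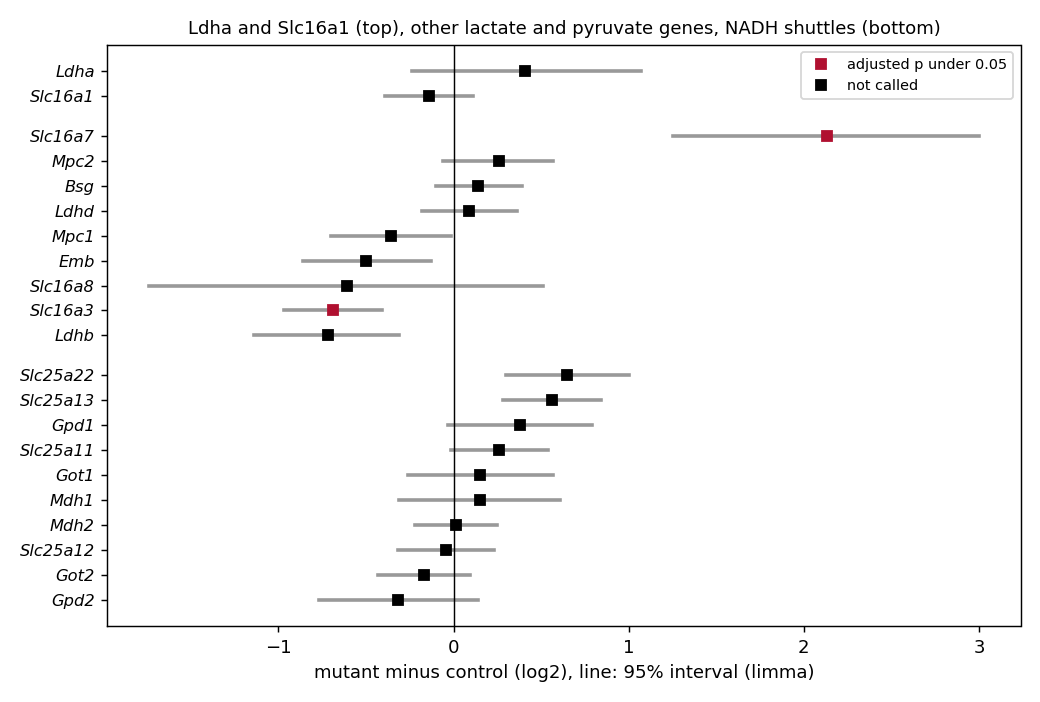
Log2 difference between mutant and control islets (x axis, squares, with the 95% interval as lines; red squares passed the threshold) for Ldha and Slc16a1, the other lactate and pyruvate genes and the NADH shuttles (y axis). Slc16a7 at 2.13 and Slc16a3 at -0.69 passed the threshold, and the intervals of Ldha and Slc16a1 include 0.

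Oat encodes ornithine aminotransferase, a mitochondrial enzyme that converts ornithine and 2-oxoglutarate to glutamate semialdehyde and glutamate. Its signal was -1.0, -0.99 and -1.41 in controls A, B and C and 0.14, -0.26 and -0.11 in mutants A, B and C. Every mutant array lay above every control array on both slides. Controls averaged -1.13 ± 0.24 and mutants -0.079 ± 0.21 (SD, n = 3 each), so Oat rose 2.07-fold (log2 difference 1.05, SE 0.17, 95% interval 0.63 to 1.47, limma, adjusted p = 0.0433). The difference was 0.81 within slide 1 and 1.34 within slide 2. With slide as a block it was 1.07 with an adjusted p of 0.0641, and leaving out any single array also ended the call, at adjusted p values of 0.0660 (without control A) to 0.152 (without control C). The single Oat probe, A_51_P141535, lies at chr7:139749726-139749785 of mm9, on the minus strand.

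Other genes of ornithine, arginine and proline metabolism had 0 of 11 tested members past the threshold (3 higher and 0 lower at an unadjusted p under 0.05, limma), with a median of 0.14. Arg1, the arginase that makes ornithine, was at 1.39 (SE 0.27, adjusted p = 0.0619).

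Mgll encodes monoacylglycerol lipase, which releases fatty acid and glycerol from monoacylglycerols, among them one that acts in insulin secretion. Its signal was 0.69, 0.50 and 0.40 in controls A, B and C and 1.16, 0.84 and 1.03 in mutants A, B and C. The arrays did not overlap, and the difference of 0.48 (SE 0.14, 95% interval 0.15 to 0.81) did not pass (limma, adjusted p = 0.127). On slides 1 and 2 it was 0.25 and 0.71. The other Mgll probes read 0.49 (SE 0.17) for A_55_P2063312 and 0.64 (SE 0.26) for A_55_P2114863. All 3 tested Mgll probes thus pointed the same way without passing. Among 10 other monoglyceride and endocannabinoid genes 0 passed (0 higher and 2 lower at an unadjusted p under 0.05, limma), with a median of -0.12. Daglb, a diacylglycerol lipase that makes the substrate of Mgll, was at -0.45, and the cannabinoid receptor gene Cnr1 at -0.39.

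Acot7 encodes an acyl-CoA thioesterase, which splits long-chain acyl-CoA into fatty acid and CoA. It had a signal of 0.0026, 0.29 and -0.018 in controls A, B and C and of 0.57, 0.15 and 0.20 in mutants A, B and C. Control B lay above mutants B and C, so the groups overlapped, and the difference of 0.22 (SE 0.16, 95% interval -0.18 to 0.61) did not pass (limma, adjusted p = 0.494). It was 0.17 and 0.44 within slides 1 and 2, and 0.083 without mutant A. Of 11 other acyl-CoA thioesterases 0 passed (2 higher and 2 lower at an unadjusted p under 0.05, limma), and their median was -0.21. Acot4 was at -0.62 and Acot10 at 0.50. The Acot4 probe was well above background on 3 control and 2 mutant arrays. It was thus tested only through the group where it was high, with low signals of -5.92, -5.32 and -5.98 in mutants A, B and C. With slide as a block Acot10 passed, at 0.59 (limma, adjusted p = 0.0391).

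Lmo4 encodes a LIM-only adaptor protein that joins transcription factor complexes. Its signal was -0.27, -0.49 and -0.47 in controls A, B and C and 0.14, 0.57 and 0.74 in mutants A, B and C. Every mutant array lay above every control array on both slides. The difference of 0.89 (SE 0.18, 95% interval 0.46 to 1.33, 1.86-fold) did not pass (limma, adjusted p = 0.0652), but with slide as a block it was 0.77 and passed (limma, adjusted p = 0.0455). Within slides 1 and 2 it was 0.92 and 0.62.

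The Lmo4 probe whose sequence is given above, A_55_P2018249, had signals of -2.46, -2.53 and -2.39 in controls A, B and C and of -2.0, -1.66 and -1.68 in mutants A, B and C. These arrays did not overlap either, and the probe's difference was 0.68 (SE 0.13, adjusted p = 0.0576 over probes, of which 2.75% passed). Of 8 other LIM domain genes and partners 0 passed (3 higher and 0 lower at an unadjusted p under 0.05, limma), with a median of 0.27. The largest differences were 0.55 for Lmo3, another LIM-only gene, and 0.47 for the LIM homeobox gene Lhx1.

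Ndrg2, a stress-responsive gene of the NDRG family, had a signal of -1.91, -2.14 and -2.56 in controls A, B and C and of -1.60, -1.72 and -0.98 in mutants A, B and C. The mutant arrays lay above all controls, mutant C by far the most. The difference of 0.77 (SE 0.26, 95% interval 0.14 to 1.39, 1.70-fold) did not pass (limma, adjusted p = 0.176) and was 0.56 and 0.74 within slides 1 and 2. The other 3 genes of the family were between 0.0052 and 0.064, and 0 of them passed (0 also at an unadjusted p under 0.05, limma).

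Zfp36l1 encodes an RNA-binding protein that speeds the decay of transcripts with AU-rich elements. Its signal was -0.16, -0.83 and -0.97 in controls A, B and C and -0.78, -0.69 and -0.52 in mutants A, B and C. Control A was the highest of all arrays and controls B and C the lowest, so the mutants lay between them. The difference of -0.011 (SE 0.23, 95% interval -0.57 to 0.55) did not pass (limma, adjusted p = 0.982), and it pointed opposite ways on slide 1 (-0.45) and slide 2 (0.12). Of 3 relatives 0 passed (1 higher and 0 lower at an unadjusted p under 0.05, limma), with Zfp36l2 at 0.29 and Zfp36l3 at -0.30.

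**Figure D3:**
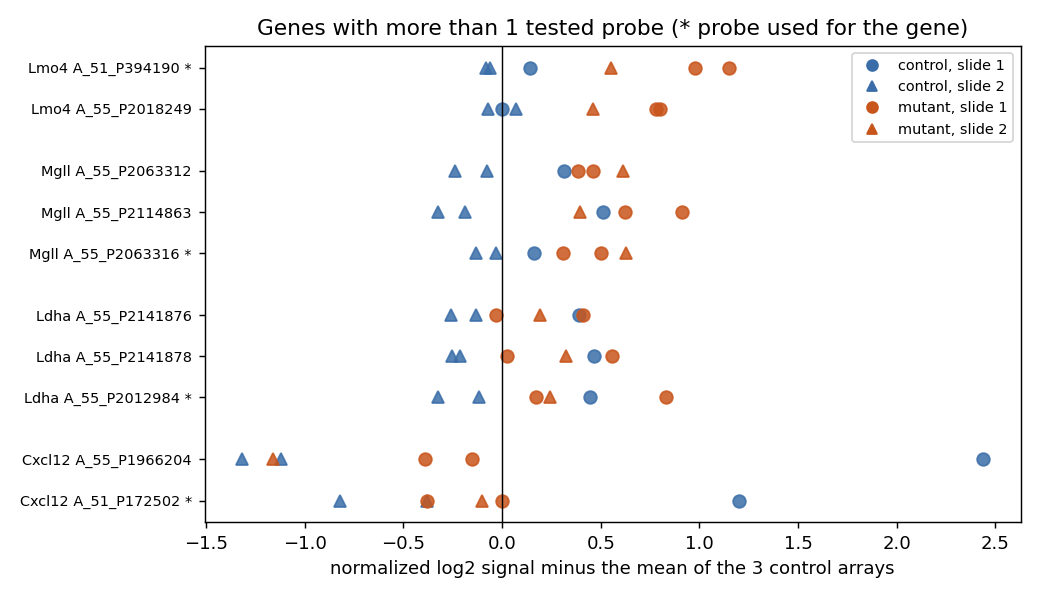
Normalized log2 signal of each array minus the mean of the 3 control arrays (x axis) for each tested probe of the genes with more than 1 tested probe (y axis), with controls in blue, mutants in orange, circles for slide 1 and triangles for slide 2, and an asterisk at the probe used for the gene. On both Lmo4 probes all mutant arrays lie right of all controls, while on both Cxcl12 probes control A lies far right of every other array.

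Among the secreted factors, Igfbp4, a binding protein that withholds insulin-like growth factors, had a signal of -3.08, -4.10 and -4.78 in controls A, B and C and of -3.22, -3.10 and -3.05 in mutants A, B and C. The mutants lay close together (SD 0.086) and the controls far apart (SD 0.86), with control A among the mutants. The difference of 0.86 (SE 0.41, 95% interval -0.15 to 1.87) did not pass (limma, adjusted p = 0.310). It was 0.0015 within slide 1, which holds control A, and 1.22 within slide 2. Without control A it was 1.32 (adjusted p = 0.0637) and without control C 0.47 (adjusted p = 0.632). Of 10 other genes of the insulin-like growth factor system 0 passed (4 higher and 1 lower at an unadjusted p under 0.05, limma), with a median of -0.18. Pappa, the protease that cleaves Igfbp4, was at 1.31 (adjusted p = 0.234), and the binding protein gene Igfbp6 at 0.82 (adjusted p = 0.174).

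Cxcl12 encodes a chemokine made by stromal cells. Its signal was 0.0013, -1.58 and -2.02 in controls A, B and C and -1.30, -1.20 and -1.58 in mutants A, B and C. Control A stood above all other arrays, and the mutants lay level with or above controls B and C. The difference of -0.16 (SE 0.51, 95% interval -1.42 to 1.09) did not pass (limma, adjusted p = 0.881), was -1.39 on slide 1 and 0.50 on slide 2, and turned to 0.44 without control A (adjusted p = 0.234). The second Cxcl12 probe, A_55_P1966204, also stood high in control A, at -1.26 against -5.02 and -4.82 in controls B and C. Of 3 genes for its receptors and cleavage 0 passed (0 also at an unadjusted p under 0.05, limma), with the receptor genes Ackr3 at 0.19 and Cxcr4 at 0.15.

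**Figure D4:**
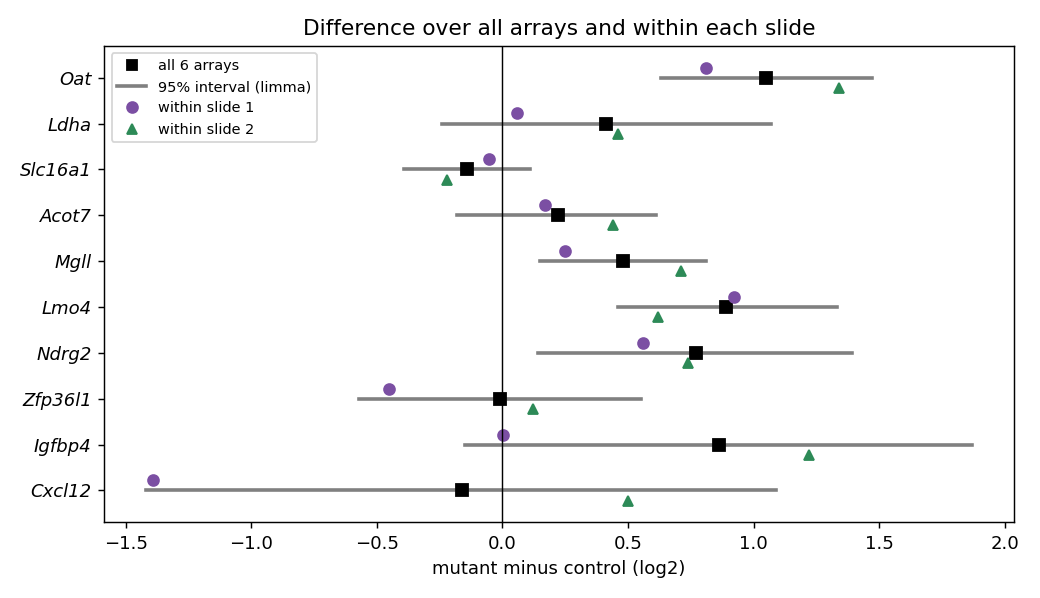
Log2 difference between mutant and control islets (x axis) for each of the 10 genes (y axis) over all arrays with the 95% interval, and within slide 1 and slide 2. Oat, Lmo4, Ndrg2, Mgll and Acot7 lie above 0 on both slides, Ldha (0.058) and Igfbp4 (0.0015) barely so on slide 1, while Cxcl12 (-1.39 and 0.50) and Zfp36l1 (-0.45 and 0.12) lie on opposite sides.

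Control A was above the control mean by 1.20 for Cxcl12, 0.91 for Igfbp4, 0.49 for Zfp36l1 and 0.44 for Ldha. On the same array the mean of 15 mesenchyme and stellate markers was 0.67 above the control mean, that of 14 leukocyte and macrophage markers 0.53 and that of 13 endothelial markers 0.33. All 15, 14 and 13 of these markers were tested and 0 passed (limma, with 0 higher and 2 lower at an unadjusted p under 0.05, both leukocyte genes). The summed mesenchyme signal ranged from 5.42 to 6.48 in controls and from 6.00 to 6.23 in mutants, and the endothelial sum from 5.23 to 5.54 and from 5.42 to 5.45. The leukocyte sum did not overlap, at 5.18 to 5.35 in controls and 4.63 to 4.94 in mutants. Such sums add unlogged signals, and this one rests mostly on its brightest probes, Itgam and Cd3e (control means 4.29 and 3.25). The mean of the leukocyte markers did overlap. Relative to the control mean it was 0.53, -0.22 and -0.31 in controls A, B and C and 0.044, -0.36 and -0.069 in mutants A, B and C. Their median was -0.54 within slide 1 and 0.40 within slide 2. The part of these cells in the member values was not tested.

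The mean of 18 acinar markers, digestive enzymes of the exocrine tissue, was -0.89, 0.87 and 1.77 relative to controls in mutants A, B and C, with -0.26, -0.071 and 0.33 in controls A, B and C. Their summed signal ranged from 10.71 to 11.08 in controls and from 10.09 to 12.26 in mutants, and 0 of the 18 passed (0 also at an unadjusted p under 0.05, limma). The acinar median was 1.58 within slide 1 and -1.07 within slide 2. With the acinar mean as a covariate, a fit chosen after seeing the data, the Oat difference was 1.14 (limma, adjusted p = 0.0655). Lmo4 was at 0.78 with the same covariate (limma, adjusted p = 0.0835). The part of acinar cells in the member values was not tested. The 8 endocrine hormone and granule genes, the markers of islet cells, were all present, but 6 of them had saturated pixels on at least 1 array, Chga on all 6. Their signals before scaling were near the top of the range, with Chga between 19.43 and 19.48 and Ins1 between 18.95 and 19.06 on the log2 scale, so no difference between groups was read from them.

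Duct, glial and alpha cell markers were read on the same arrays. The 10 duct markers had a median of -0.10, with summed signals of 5.09 to 5.31 in controls and 5.64 to 5.68 in mutants, which did not overlap, and 0 passed (2 higher and 0 lower at an unadjusted p under 0.05, limma). This sum rests mostly on its brightest probe, Krt18 (means of 4.73 in controls and 5.34 in mutants), while 6 of the 10 markers were below 0. The mean of these markers did overlap. Relative to the control mean it was 0.20, -0.16 and -0.036 in controls A, B and C and 0.030, 0.070 and 0.52 in mutants A, B and C. With slide as a block 1 duct marker passed, Cftr, a chloride channel gene named after its value was seen, at 2.53 (limma, adjusted p = 0.0157, and 0.0831 without the block). Its probe was well above background on 2 control arrays and 3 mutant arrays, so it was tested only through the group where it was high. Control signals were low, at -5.13, -7.11 and -6.54 in controls A, B and C. The call is therefore no support for a change in duct markers. Of 8 Schwann and glia markers 6 were tested, Cdh19 and Foxd3 being too dim, and 0 passed (0 also at an unadjusted p under 0.05, limma), with a median of 0.11. The 11 alpha cell markers had a median of 0.49, with 10 of them above 0, and at an unadjusted p under 0.05, 5 were higher and 1 lower (limma). The gene that passed was Etv1, at 1.29 (limma, adjusted p = 0.0435), which the slide block moved to 0.0654. The summed signal of the alpha markers ranged from 8.36 to 8.90 in controls and from 8.50 to 9.31 in mutants. It rests mostly on Gcg (control mean 7.98), which had saturated pixels on 4 arrays, so no difference between groups was read from it. Gcg, at 0.24, is also among the 10 markers above 0. The part of duct and alpha cells in the member values was not tested.

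**Figure D5:**
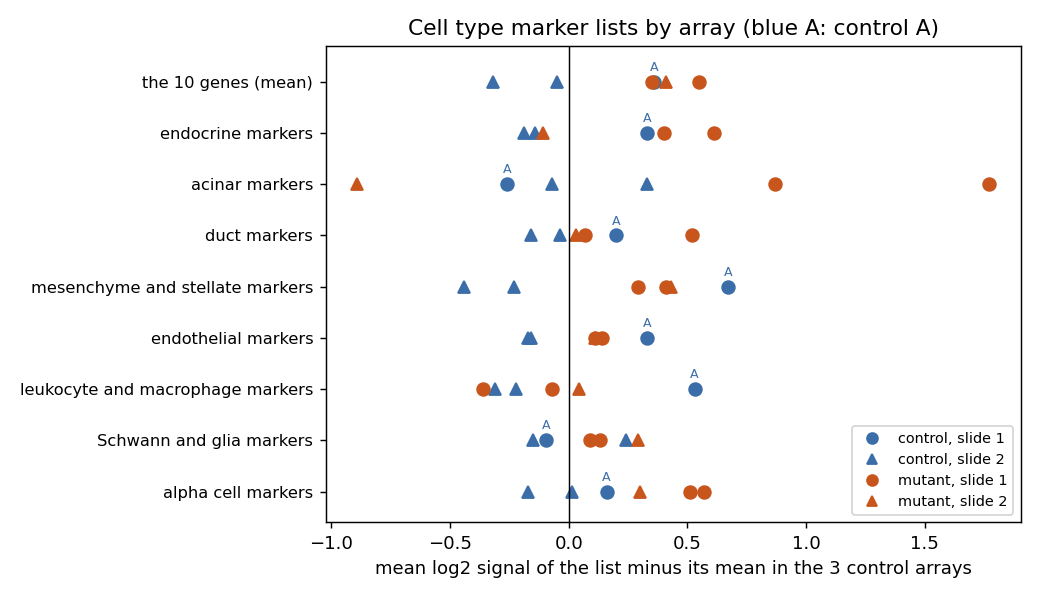
Mean log2 signal of each cell type marker list (y axis) on each array, minus its mean in the 3 control arrays (x axis), with controls in blue and mutants in orange; the top row is the mean of the 10 genes. Control A reads 0.67 for mesenchyme and 0.53 for leukocyte markers, and acinar markers run from -0.89 in mutant A to 1.77 in mutant C.

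A further list of 21 genes described as low in islets, without the 10 members, had 1 of 20 tested genes higher and 0 lower in mutants. That gene was Zyx, which encodes zyxin, a protein of focal adhesions. Its signal was 0.16, 0.16 and 0.028 in controls A, B and C and 0.91, 0.67 and 0.74 in mutants A, B and C, with no overlap. It rose 1.58-fold (log2 difference 0.66, SE 0.11, limma, adjusted p = 0.0448), with 0.0504 under a slide block. The call was also lost with any single array left out. The median of the list was 0.040, against 0.45 for the 10 members and -0.025 for all genes, and 3 of its genes were higher and 2 lower at an unadjusted p under 0.05. Pdgfra, the remaining gene of the 21, was too dim to be tested.

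Across the 6 arrays the members whose signals ran most alike were Oat and Mgll, with a Pearson correlation of 0.97, followed by Ldha and Ndrg2 at 0.92 and Zfp36l1 and Cxcl12 at 0.89. These values describe 6 arrays that share the groups and slides, and Zfp36l1 and Cxcl12 share the high reading of control A.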

How the data were processed

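Islet RNA of 3 control and 3 mutant pools was read on single-colour Agilent arrays. The deposited scanner files, made with Agilent Feature Extraction 10.7.3.1 per the submitters' processing notes, hold intensities that the authors' software had corrected for background and for trends within the array, per the file headers, with no scaling between arrays. The files' flags (other values) mark spots above background, saturated or outlying. Further linear intensities deposited by the authors and equalized between arrays by a method not given in the sources used here, served as an alternative. Their array medians were 266.95 to 274.55, and the values followed the median spot signal.

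The 75th percentile of all non-control spots was subtracted from log2 intensities, and spots were averaged per probe. A probe was tested if most of its spots were well above background on all arrays of at least 1 group (28361 of 39429). The tested probe with the highest mean stood for a gene, which gave 22775 genes. The fit used limma 3.58.1 under R 4.3.3 (with data.table, version 1.17.8), two-sided, with Benjamini-Hochberg adjustment over all genes, at an adjusted p under 0.05. Arrays have no read depth, and their number limits the precision. The slide, read from the barcodes, was used as a block and to split the arrays. The fit was tested on simulated data.

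The members and lists were chosen with earlier results of these data known. The rule named all members with their probes, Nkx6-1, and from other lists up to 4 genes past the threshold or else the 2 with the largest difference. A gene that this rule takes in is not reported here. Alternatives covered background correction, normalization, filters, outlier spots, blocks, variance, probes, threshold and single arrays left out.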

Additional observations from a re-analysis of the deposited data

How the results depend on the processing

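Over 21 alternatives for each of 13 genes (the 10 members, Slc16a3, Slc16a7 and Zyx), 212 of the values kept direction and side of the threshold, 49 lost the call, 7 gained it and 5 changed sign. Every loss fell on a called gene, as only those had a call to lose. Of 21 alternatives each, Oat lost the call in 12, Slc16a3 in 14, Slc16a7 in 11 and Zyx in 12. Oat ran from 0.91 to 1.15 and Lmo4 from 0.76 to 1.15, at adjusted p values of 0.0221 to 0.182 and of 0.0396 to 0.242 (limma). Slc16a7 ran from 1.64 under normexp to 2.51 without control A, and was 1.79 with the deposited equalized values. The sign of Cxcl12 turned without control A (0.44), and its value ran from -0.57 with 1 array left out. That of Zfp36l1 turned with the deposited equalized values (0.036), without control A (0.24), without mutant A (0.048) and without both mutant A and mutant B (0.13), and it ran from -0.17 to 0.24 with 1 array left out. The cause was not tested.

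The number of all genes past the threshold was 576 and became 1514 at an adjusted p under 0.1, 150 without mutant arrays A and B, and 160 with the acinar mean as a covariate. With 1 array left out it ran from 13 (without control B) to 396 (without control A), being 17 when control C was dropped and 305, 22 and 180 when mutants A, B and C were, with fewer arrays in each fit. The number of members past the threshold in the upward direction was 1. It was 2 under normexp, with the deposited values, with a variance trend and robust estimation, and at an adjusted p under 0.1, where Lmo4 joined Oat. It was 0 without a filter on dim probes (31829 genes tested), without mutant arrays A and B, and with the acinar covariate, where 4, 3 and 3 members were higher at an unadjusted p under 0.05. Without 1 array it was 0 to 1, the 1 being Lmo4 (adjusted p = 0.0442) without mutant A. With slide as a block Lmo4 passed in place of Oat. The member median of 0.45 became 0.67 without mutant arrays A and B, and ran from 0.33 to 0.60 with 1 array left out. Leaving out mutants A and B, the acinar covariate and quantile normalization with a slide block were chosen after seeing the data. In fits with 1 mutant array, that array is assumed to vary like the controls.

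Both groups use the letters A to C. Deviations from the group mean correlated at -0.23, -0.19 and -0.031 between arrays of a letter. The arrays of a letter always lay on opposite slides, so these values cannot show whether samples of a letter were paired. The labels give only the shared letter. With the letter as a replicate block limma called 0 of all genes, with 3163 at an unadjusted p under 0.05, and 0 members, with 3 higher at that level.

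With 3 pools per group, the 95% intervals of Ldha, Igfbp4 and Cxcl12 reach past 1 on the log2 scale.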
